A study of Mus musculus with 3 samples.

Results

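The constant genes of the antibody light chains, Igkc of the kappa locus and Iglc1, Iglc2 and Iglc3 of the lambda locus, were followed in 3 RNA sequencing libraries of mouse pro-B cells. They were taken by name, through their Entrez numbers, and are 4 of the 27179 genes counted. All 4 were listed and all 4 passed the filter on low counts, the lambda genes through the wild type alone. There were 2 Pax5-/- libraries, labelled male and prepared independently, and 1 wild-type library, labelled female; every library came from C57BL/6 bone marrow, as B220+ cells grown on an OP9 stromal layer. For both Pax5-/- libraries the labels state that IgM- cells were taken at day 7 by depletion on magnetic beads, and for the wild type they give neither a day nor a depletion. The allele's deleted exons are not stated. Genotype, sex, stated day and stated depletion cannot be told apart in this design.

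A light chain is made by joining 1 variable segment to 1 joining segment, and splicing of the transcript brings both onto the constant exon. In mouse bone marrow the heavy chain is rearranged first, in pro-B cells, and is then displayed with a surrogate light chain made of the Igll1 and Vpreb proteins. Signalling through that pre-B-cell receptor is followed by rearrangement at the kappa locus and, in a minority of cells, the lambda locus. Most mouse antibodies carry kappa. Constant exons can also be transcribed from loci that have not rearranged, so constant counts are not a count of cells with a light chain. In bulk libraries, fewer cells with a transcript and less transcript in each cell cannot be told apart.

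The 4 coding exons end in the same way, with a cysteine that forms the bond to the heavy chain. It is the last residue in kappa and the last but one in lambda. The last 48 coding bases, from GENCODE M21 transcripts of mm10, are shown because they tell kappa from lambda and Iglc1 from its relatives, with the cysteine codon in capitals. They lie at chr6:70726707-70726754 on the plus strand for Igkc, and on the minus strand at chr16:19061755-19061802 for Iglc1, chr16:19198539-19198586 for Iglc2 and chr16:19065368-19065415 for Iglc3.
Igkc: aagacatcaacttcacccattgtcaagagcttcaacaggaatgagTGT
Iglc1: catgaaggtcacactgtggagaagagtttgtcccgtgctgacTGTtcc
Iglc2: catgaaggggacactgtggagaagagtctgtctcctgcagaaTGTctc
Iglc3: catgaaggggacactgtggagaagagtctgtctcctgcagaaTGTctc
In this stretch Iglc2 and Iglc3 were identical and Iglc1 was not. Over the whole counted exon, Iglc2 and Iglc3 matched at 306 of 317 bases (96.5%), Iglc1 matched Iglc2 at 73.5% and Iglc3 at 74.1% of aligned positions, and Igkc matched the lambda genes at 51.4% to 53.4%.

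Because counts of Iglc2 and Iglc3 could trade places, the first 300 bases of both are shown with every difference in capitals, at chr16:19198553-19198852 for Iglc2 and chr16:19065382-19065681 for Iglc3, both on the minus strand.
Iglc2: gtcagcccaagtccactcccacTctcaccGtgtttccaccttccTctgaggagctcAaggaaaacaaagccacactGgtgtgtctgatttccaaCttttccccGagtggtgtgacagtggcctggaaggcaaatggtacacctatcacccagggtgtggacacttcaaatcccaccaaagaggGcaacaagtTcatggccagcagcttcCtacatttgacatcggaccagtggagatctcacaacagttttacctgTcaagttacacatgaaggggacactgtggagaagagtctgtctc
Iglc3: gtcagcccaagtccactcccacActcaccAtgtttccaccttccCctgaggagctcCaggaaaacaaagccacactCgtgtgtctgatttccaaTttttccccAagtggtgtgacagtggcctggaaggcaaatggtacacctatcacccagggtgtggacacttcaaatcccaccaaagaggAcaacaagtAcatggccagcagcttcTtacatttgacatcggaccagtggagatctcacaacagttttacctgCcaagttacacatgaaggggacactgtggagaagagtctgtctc
There were 11 differences, and the longest run without any was 79 bases. Of all 50-base windows of the counted exon, 15.3% in Iglc2 and 32.8% in Iglc3 occurred in the transcript of another gene, against 0 of 271 windows in Igkc and in Iglc1. For Iglc2 the other gene was Iglc3. For Iglc3 there were 2, Iglc2 and 2010309G21Rik, an RNA of the opposite strand with an exon over 93 bases (29.3%) of Iglc3. No 100-base window was shared. The read length, the strand setting and the handling of reads that fit more than 1 place are not stated. The split between Iglc2 and Iglc3 and the counts of Iglc3, above all the smallest, are therefore uncertain. By contrast, Igkc and Iglc1 share no window of either length.

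Kappa constant transcripts were abundant in the wild type and scarce without Pax5. Igkc (Entrez 16071; mm10 chr6:70726435-70726754, plus strand, a single coding exon) was counted 54 times in Pax5-/- 1, 30 times in Pax5-/- 2 and 3927 times in the wild type. After scaling to library size (TMM-scaled CPM, a normalised read count) these were 8.33, 4.41 and 613 CPM. Both Pax5-/- libraries lay far below the wild type. The mean of 6.37 ± 2.78 CPM (SD, n = 2) was 96.1-fold below the wild type, which is -6.59 ± 0.38 SE on the log2 scale (adjusted p = 0.00404 by edgeR, quasi-likelihood test with Benjamini-Hochberg adjustment over all genes). The Pax5-/- libraries also differed from each other, by a ratio of 1.89 (95% counting interval 1.19 to 3.06). On a per-length scale, in CPM per kilobase, Igkc ranked 24 of the 11783 genes tested in the wild type, and 3497 and 5524 in Pax5-/- 1 and 2.

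Lambda constant transcripts were at or near 0 in Pax5-/- and readily counted in the wild type. Iglc3 (Entrez 110787; mm10 chr16:19065365-19065681, a coding exon on the minus strand, as for its relatives) had 2, 4 and 578 counts in Pax5-/- 1, Pax5-/- 2 and the wild type, or 0.309, 0.588 and 90.2 CPM. Its log2 fold change was -7.58 ± 0.27 SE (edgeR adjusted p = 0.00272). Counts this low in Pax5-/- include the uncertainty over the opposite-strand RNA given above. Iglc1 (Entrez 110785; chr16:19061752-19062071) had 0, 0 and 431 counts and Iglc2 (Entrez 110786; chr16:19198536-19198852) had 0, 0 and 97. A count of 0 allows up to 3 counts, which are 0.463 and 0.441 CPM in Pax5-/- 1 and 2. Taken as 3 counts over both libraries, Iglc1 was at least 298-fold lower (adjusted p = 0.00451, edgeR) and Iglc2 at least 67.0-fold lower (adjusted p = 0.0131, edgeR). Summed into 1 feature, an alternative chosen after seeing the data that does not depend on the split among them, the lambda genes had 2, 4 and 1106 counts, giving a log2 fold change of -8.52 ± 0.27 SE (edgeR adjusted p = 0.00272).

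**Figure D1:**
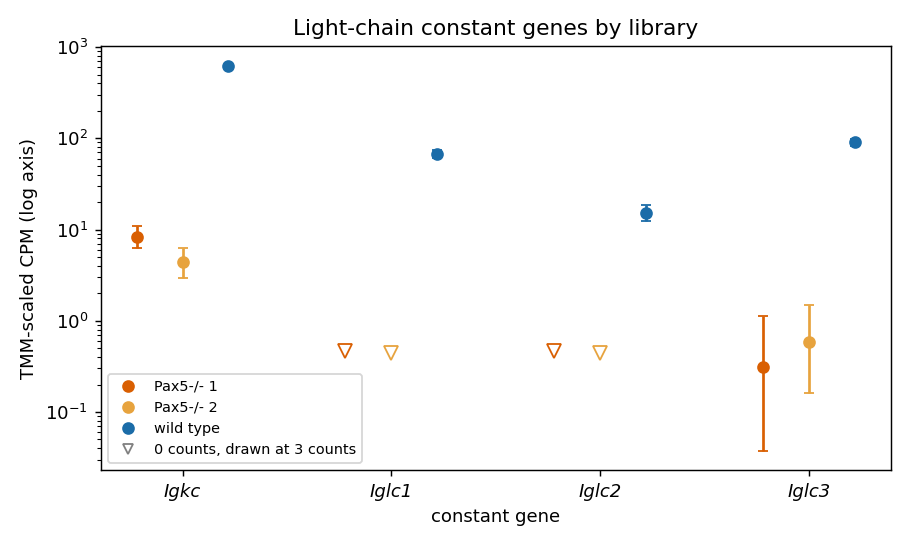
Level of each constant gene in each library, in TMM-scaled CPM on a log axis; bars are exact 95% Poisson intervals and cover counting error only, and open triangles stand for 0 counts and are drawn at the level of 3 counts. Igkc sits at 8.33 and 4.41 CPM for Pax5-/- and at 613 CPM for wild type, and Iglc1 and Iglc2 were counted in the wild type alone.

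All 4 constant genes were thus called lower in Pax5-/-, where 8.55% of all genes tested were called lower (1007 of 11783) and 18.1% were called in either direction. The spread that each gene itself gives to these tests comes from 1 residual degree of freedom, that of the Pax5-/- libraries. edgeR moderated it with the spread over all genes tested (3.15 prior degrees of freedom), so the p-values rest largely on that shared estimate. The variation of the single wild-type library was taken to equal that of the Pax5-/- libraries. The labels do not say whether the Pax5-/- samples came from separate animals, so the p-values measure the spread between these samples, which may be technical. The lambda genes entered the test because they were high in the wild type, so a difference was bound to appear among those that passed.

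Kappa outnumbered lambda in every library, and the ratio was higher in each Pax5-/- library than in the wild type. The ratio of Igkc to summed lambda constant counts was 27.0 in Pax5-/- 1 (54 against 2 counts), 7.50 in Pax5-/- 2 (30 against 4) and 3.55 in the wild type (3927 against 1106). As a share of constant counts, kappa made up 96.4% (exact Clopper-Pearson 95% interval 87.7 to 99.6), 88.2% (72.5 to 96.7) and 78.0% (76.9 to 79.2). The interval of Pax5-/- 1 lay above that of the wild type, while that of Pax5-/- 2 contained it. With 2 libraries against 1, the difference of 14.3 percentage points between the Pax5-/- mean and the wild type gave an exact two-sided permutation p of 0.333, the smallest this design allows, so this test could not have passed whatever the values. A ratio resting on 2 and 4 lambda counts is imprecise: its 95% interval, for counting error only, ran from 7.12 to 229 for Pax5-/- 1 and from 2.64 to 29.3 for Pax5-/- 2. That of the wild type ran from 3.32 to 3.80. Counts pooled over both Pax5-/- libraries gave 14.0 (6.17 to 39.2), above the wild-type interval. With variable and joining segments added, the intervals were 41.0 to 1240 for Pax5-/- 1, 22.4 to 216 for Pax5-/- 2 and 3.10 to 3.46 for the wild type, so both Pax5-/- libraries then lay above it in counting error, with no replicate of the wild type. Igkv segments held 245 of 299 kappa counts in that sum in Pax5-/- 1, 203 of 233 in Pax5-/- 2 and 1613 of 5632 in the wild type. The wider ratio thus largely follows the summed Igkv counts of Pax5-/-, which were out of proportion to Igkc and rested on few segments, as given below. Division by gene length left the ratios at 26.7, 7.43 and 3.53, since the counted exons are 317 or 320 bases long. The wild type, whose kappa and lambda counts carry this comparison, is the library for which no removal of IgM+ cells is stated.

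**Figure D2:**
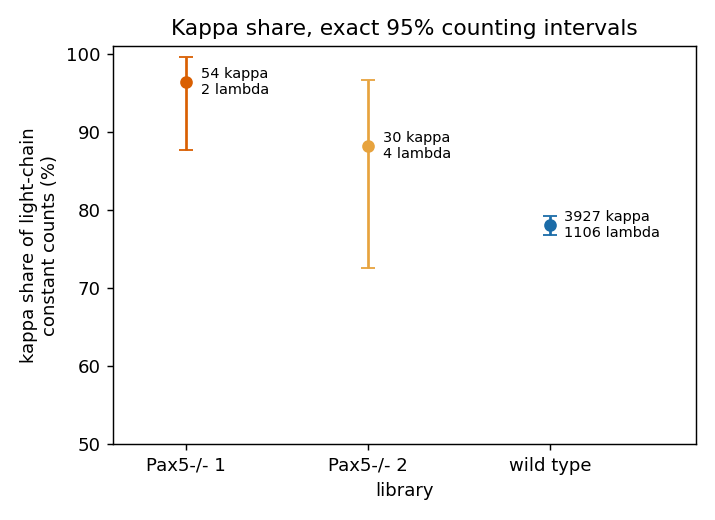
Kappa share of the light-chain constant counts in each library, in percent, with exact 95% binomial intervals that cover counting error only and the counts beside each point; the axis starts at 50%. Pax5-/- 1 (96.4%) and Pax5-/- 2 (88.2%) lie above the wild type (78.0%), and the interval of Pax5-/- 2 reaches below the wild-type value.

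Within the lambda locus, the counts of the wild type were spread unequally over the constant genes. The intervals below cover counting error only. They leave out the uncertainty over shared sequence and the opposite-strand RNA given above, which bears on Iglc2 and Iglc3 and so on their order beside Iglc1. Iglc3 held 52.3% of the 1106 lambda counts (exact 95% interval 49.3 to 55.2), Iglc1 39.0% (36.1 to 41.9) and Iglc2 8.77% (7.17 to 10.6). Per length the order of levels was Igkc at 1914, Iglc3 at 284, Iglc1 at 210 and Iglc2 at 47.7 CPM per kilobase, with counting intervals that did not overlap between neighbours in CPM, in 1 library and so with no replicate check. All 6 lambda counts of the Pax5-/- libraries were on Iglc3.

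The mouse lambda locus holds 2 clusters, one with Iglv1 upstream of Iglc3 and Iglc1 and one with Iglv2 and Iglv3 upstream of Iglc2. Iglv1 had 0, 0 and 490 counts in Pax5-/- 1, Pax5-/- 2 and the wild type, Iglv3 had 0, 0 and 79, and Iglv2 had 0, 0 and 33. In the wild type Iglv1 counts stood to those of Iglc1 and Iglc3 as 0.486 to 1 (95% counting interval 0.435 to 0.542). Iglv2 and Iglv3 stood to Iglc2 as 1.15 to 1 (0.872 to 1.53). The 2 clusters thus differed in variable counts per constant count beyond counting error, in a library where Iglc2 could lose or gain reads to Iglc3.

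As a sum, variable segments of the kappa locus were not reduced in proportion to Igkc. Few segments carried that sum without Pax5: 16 of the 103 listed were above 0 counts in each Pax5-/- library, against 96 for wild type. The 103 Igkv segments listed summed to 245, 203 and 1613 counts, so the ratio of variable to constant counts was 4.54 (95% counting interval 3.37 to 6.21) for Pax5-/- 1, 6.77 (4.60 to 10.3) for Pax5-/- 2 and 0.411 (0.387 to 0.435) for the wild-type library. The intervals of both Pax5-/- libraries lay above that of the wild type. Of 42 Igkv segments tested, 23 were called lower, 0 higher and 19 were not called, beside 8.55% called lower and 9.53% called higher of all genes tested. The 23 passed the count filter through the wild type alone, 20 of them with 0 counts in both Pax5-/- libraries, so their direction was fixed in advance and their lower calls support nothing further. Some of the 19 not called also had 0 counts in both Pax5-/- libraries, so a segment not called is not shown to be kept. By counts summed over the 3 libraries, of which 2 are Pax5-/-, the most counted segments were Igkv14-111, with 67, 46 and 41 counts, Igkv9-124, with 50, 66 and 18, and Igkv2-109, with 64, 37 and 22. Together they held 73.9% and 73.4% of Igkv counts in the Pax5-/- libraries and 5.02% in the wild-type one. These shares follow in part from that choice, and none of the 3 segments was called. The Pax5-/- ratios of variable to constant counts thus rest mostly on these 3 and do not describe every segment. In the wild type the most counted were Igkv1-135 with 108 counts, Igkv3-2 with 88 and Igkv17-127 with 73, each at 0 in both Pax5-/- libraries. Igkv9-124 had a log2 fold change of 1.63 ± 0.38 SE (edgeR adjusted p = 0.0579). The 5 Igkj segments had 0, 0 and 92 counts, a wild-type ratio to Igkc of 0.0234. In Pax5-/- 1 and 2, 0 counts against 54 and 30 allow a ratio of up to 0.0707 and 0.131 (95% interval), so joining counts at the wild-type ratio were not detectable at this depth.

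**Figure D3:**
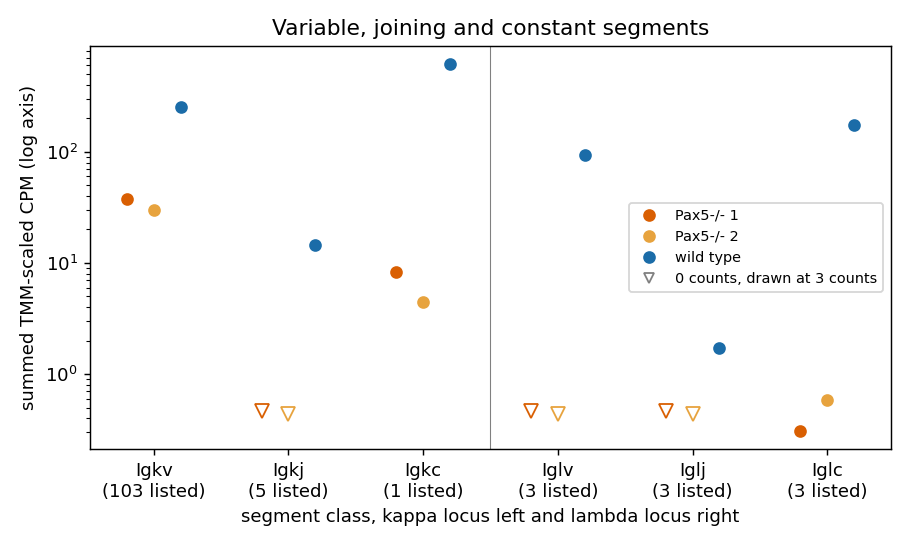
Summed TMM-scaled CPM, on a log axis, of the variable, joining and constant segments of the kappa and lambda loci in each library; open triangles are 0 counts, drawn at the level of 3 counts. In Pax5-/- the Igkv sum lies above Igkc (37.8 against 8.33 CPM in Pax5-/- 1), and in the wild type below it (252 against 613 CPM).

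The surrogate light chain, which stands in for kappa and lambda before they are made, was kept at levels much closer to the wild type. Igll1 had 2887, 3697 and 5048 counts in Pax5-/- 1, Pax5-/- 2 and the wild type, and was not called (log2 fold change -0.67 ± 0.15 SE, edgeR adjusted p = 0.0556). Vpreb2 was not called either (-0.14 ± 0.24 SE), and Vpreb1 fell by 1.22 on the log2 scale ± 0.22 SE (edgeR adjusted p = 0.0352). On a per-length scale Igll1 stood at 512, 624 and 905 CPM per kilobase, beside 27.0, 15.6 and 2456 for the 4 constant genes together. Conventional light chain was thus 2.71 times the level of Igll1 in the wild type, and Igll1 was 19.0 and 40.0 times the level of conventional light chain in Pax5-/- 1 and 2. Igll1 resembles the lambda constant genes in sequence (77.9% of aligned positions with Iglc1), but its longest run shared with any of the 4 genes was 20 bases.

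The heavy chain that these light chains pair with was lower too, though by less. Ighm, the mu constant gene, had 12738, 10997 and 30430 counts, a Pax5-/- mean of 1791 ± 248 CPM (SD, n = 2) beside 4746 CPM for the wild type (log2 fold change -1.41 ± 0.14 SE, edgeR adjusted p = 0.0102). Ighm was 1.30 times the level of the light-chain constant genes per length in the wild type and 48.8 and 69.3 times in Pax5-/- 1 and 2. Ighd, the delta constant gene of more mature B cells, had 46, 39 and 171 counts, giving a log2 fold change of -2.05 ± 0.25 SE. Ighg2b, a gene of switched antibodies, had 0, 0 and 613 counts and was at least 424-fold lower. Those 3 were the tested members among 8 heavy-chain constant genes, and all 3 were called lower, beside 8.55% of all genes tested. Ighg2b passed the count filter through the wild type alone, so its direction was fixed in advance. Ighg1, Ighg2c, Ighg3, Ighe and Igha had 0 to 3 counts in every library.

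**Figure D4:**
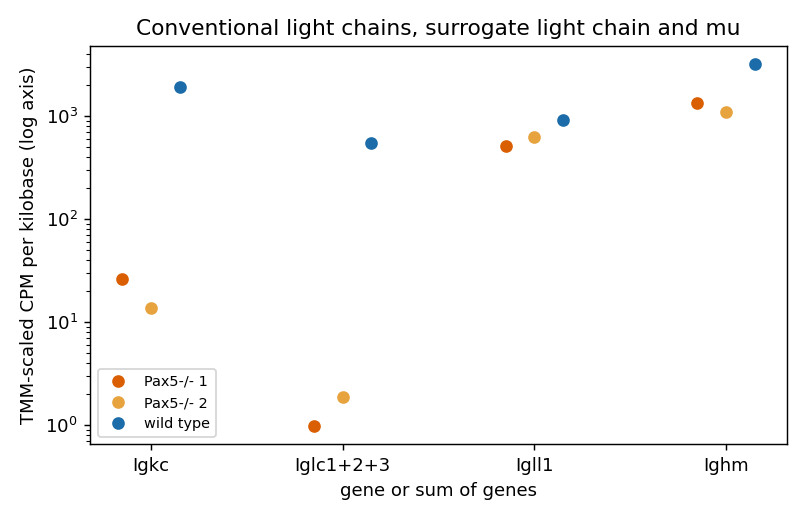
Level per length, in TMM-scaled CPM per kilobase on a log axis, of Igkc, the summed lambda constant genes, the surrogate light chain gene Igll1 and the mu gene Ighm; each point is 1 library. Igkc lies above Igll1 in the wild type (1914 against 905) and below it in both Pax5-/- libraries (26.0 against 512 and 13.8 against 624).

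Genes that carry the signal towards light-chain rearrangement were lower in part. Of 10 genes of the surrogate light chain and pre-B-cell receptor, all tested, 7 were called lower, 0 higher and 3 were not called, with a median log2 fold change of -1.16 against 0.0074 over all genes tested. Of all genes tested, 8.55% were called lower and 9.53% higher. Blnk, the adaptor that links the receptor to downstream kinases, fell by 7.03 on the log2 scale ± 0.30 SE. Vpreb3 stood at -4.41 ± 0.46 SE, and the signalling chains Cd79a and Cd79b at -3.42 ± 0.21 SE and -1.87 ± 0.10 SE, all called.

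Among 28 factors known to act on the light-chain loci, 13 were called lower, 2 higher and 13 were not called, with a median log2 fold change of -0.27. Of all genes tested, 8.55% were called lower and 9.53% higher. Ikzf3, which encodes Aiolos, had 9, 22 and 1744 counts and fell by 6.86 on the log2 scale ± 0.42 SE (edgeR adjusted p = 0.00442). Spib, an ETS factor, had 249, 234 and 6083 counts and fell by 4.70 ± 0.13 SE. Irf4, which binds light-chain enhancers with ETS factors, had 96, 130 and 2148 counts and fell by 4.30 ± 0.20 SE. Its relative Irf8 fell by 2.44 ± 0.13 SE. The ETS factor PU.1, encoded by Spi1, was not called, at 0.53 ± 0.18 SE (edgeR adjusted p = 0.120). Members that rose were Brwd1, a chromatin reader needed for kappa recombination in mouse, at a log2 fold change of 1.70 ± 0.19 SE, and Mef2c, at 1.26 ± 0.11 SE. Pax5 itself, a member of this list, had 417, 551 and 1601 counts and fell by 1.78 ± 0.19 SE; without the allele's exons these counts do not check the genotype.

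Genes of the recombination machinery moved in both directions. Of 14 tested, 4 were called higher, 4 lower and 6 were not called, with a median log2 fold change of 0.15. Of all genes tested, 9.53% were called higher and 8.55% lower. Dntt, which adds bases at junctions, and Poll, a polymerase of end joining, were called higher, at 1.13 ± 0.17 SE and 1.46 ± 0.20 SE on the log2 scale. Polm, a related polymerase with a known role in light-chain joining in mouse, had 0, 0 and 246 counts, and Lig4, the end-joining ligase, fell by 2.76 ± 0.23 SE. Polm passed the count filter through the wild type alone, so its direction was fixed in advance. Of the recombinase genes, Rag1 was called higher, at 0.85 ± 0.15 SE, with 3737, 4621 and 2237 counts, and Rag2 was not called, at 0.21 ± 0.15 SE, with 471, 493 and 403.

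**Figure D5:**
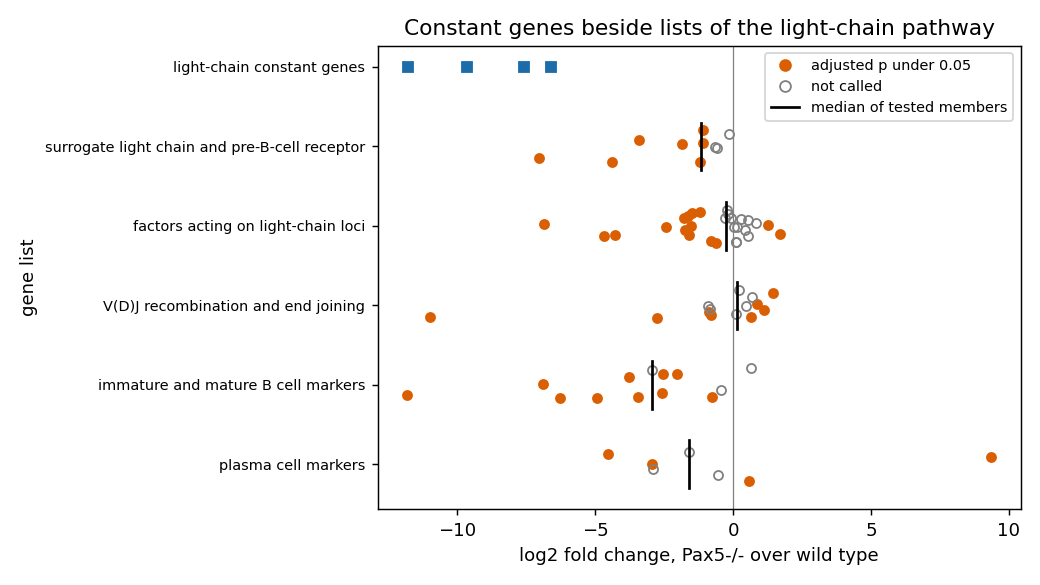
Log2 fold changes of the 4 constant genes (squares, all called) and of the tested members of 5 gene lists, Pax5-/- over wild type; filled circles were called at an adjusted p under 0.05, open circles were not, vertical bars are medians, and genes with 0 counts in a group are at fitted values that depend on the prior count. The constant genes lie at -6.59 or below, beside list medians of -2.95 to 0.15.

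Most tested markers of B cells past the pro-B stage were lower in Pax5-/-, as the light chains were. Of 15 such markers 13 were tested, and 10 were called lower, 0 higher and 3 were not called (median log2 fold change -2.95). Of all genes tested, 8.55% were called lower and 9.53% higher. The summed level of the 15 markers was 443, 483 and 1448 CPM in Pax5-/- 1, Pax5-/- 2 and the wild type, with 2 and 4 of the 15 at 0 in Pax5-/- and none in the wild type. Ms4a1, which encodes CD20, had 0, 0 and 442 counts and was at least 305-fold lower. Fcmr, an IgM receptor, had 2, 1 and 189 counts, giving a log2 fold change of -6.91 ± 0.40 SE. The class II genes H2-Ab1 and H2-Aa were at -6.29 ± 0.23 SE and -4.95 ± 0.58 SE. Ms4a1, Fcmr, H2-Ab1 and H2-Aa passed the count filter through the wild type alone, so their direction was fixed in advance. The 3 not called were Cxcr5, which went the other way at 0.64 ± 0.49 SE, Ccr7 at -0.43 ± 0.26 SE and Cd40 at -2.95 ± 1.16 SE. Fcer2a and Cr2, which mark mature B cells, had at most 2 and 10 counts in any library. The part of IgM+ or later B cells in the light-chain counts was not tested.

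Markers of antibody-secreting cells were mixed. Of 8 genes 7 were tested, with 2 called higher, 2 lower and 3 not called, and a median log2 fold change of -1.60. Of all genes tested, 9.53% were called higher and 8.55% lower. Jchain, whose product links the units of polymeric antibodies, had 11987, 14092 and 19 counts, and Mzb1, a chaperone of IgM assembly, was called higher, at 0.57 ± 0.11 SE. Sdc1 and Ell2 were called lower, at -4.54 ± 0.35 SE and -2.95 ± 0.41 SE, and the 3 genes not called, Prdm1, Derl3 and Xbp1, stood at -2.92, -1.60 and -0.54. Jchain was thus high in the libraries where light chains were low, and low where they were high.

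The labelled cell type was checked on 11 pro-B genes, all tested, of which 5 were called higher, 4 lower and 2 were not called. For this list and the marker lists below, the shares over all genes tested were 9.53% called higher and 8.55% lower. Kit, a receptor of early progenitors, was called higher, at 2.47 ± 0.16 SE and Ebf1, a B-lineage transcription factor, fell by 1.62 ± 0.16 SE. Myeloid markers summed to 32.6, 45.8 and 66.4 CPM and stromal markers to 8.80, 6.76 and 17.9 CPM over 10 and 9 genes, with S100a9 at 0, 0 and 232 counts and S100a8 at 0, 0 and 30. In Pax5-/- 1, Pax5-/- 2 and the wild type, 3, 5 and 1 of the myeloid markers and 2, 3 and 2 of the stromal markers were at 0, among the latter Lum and Dcn in every library. Of 7 myeloid genes tested, 1 (Lyz2) was called higher and 2 lower. The 2 lower, S100a9 and S100a8, passed the count filter through the wild type alone, so their direction was fixed in advance. Of 4 stromal genes, led by Cxcl12 and Col1a1, none was called. The 9 T cell markers summed to 166, 146 and 4.06 CPM. Of these 3 were tested, passing the filter through Pax5-/- alone, and 2, Trbc1 and Trbc2, were called higher, while Cd3e had 0, 1 and 0 counts. The part of these cell types in the light-chain differences was not tested.

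The genes whose levels lay nearest to those of the light chains over the 3 libraries were found by Euclidean distance in log2 CPM, receptor segments left out. Blnk was nearest to Igkc, at a distance of 0.67, with 36, 23 and 3741 counts. It was followed by Rpl29 (1.05) and Bcat1 (1.22), then by Atp1b1 with 65, 86 and 4628 counts and Cplx2 with 44, 84 and 5097. Nearest to the lambda sum was Fcrla, a B-cell Fc receptor-like gene, at 0.26, with 2, 5 and 1003 counts, followed by Crhbp (0.40), B3gnt8 (1.11) and Alpl (1.12). Rpl29 is uncertain because ribosomal protein genes have many processed copies. Likeness over 3 libraries is a description of these levels only.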

How the data were processed

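RNA from 3 libraries was analysed, grouped by the genotype in the titles. The deposited values are whole-number counts per Entrez gene that the authors made with featureCounts on mm10, per the submitters' processing notes; the aligner, annotation, versions and strandedness are not stated there. The deposited gene lengths, in bases, served for per-kilobase levels. They show that counted spans cover coding bases only, 60.2% (Igkc) to 70.5% (Iglc1) of the GENCODE M21 exons, so reads in the rest of the exon were not counted. Totals were 6487846, 6697879 and 6530057 counts in Pax5-/- 1, Pax5-/- 2 and the wild type, the same in per-library files.

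Symbols were taken from the RefSeq annotation of assembly GRCm38.p6, to which mm10 corresponds (25275 of 27179 numbers, 93.0%). Counts were filtered (filterByExpr, minimum count 10), TMM-scaled (factors 0.9997, 1.018 and 0.983) and tested with edgeR 4.0.16 (glmQLFTest) in R 4.3.3, with limma 3.58.1 and DESeq2 1.42.0 as alternatives; the threshold was an adjusted p of 0.05. Each SE is the size of the log2 fold change over the square root of F. The test was checked on simulated counts. It recovered 17% of 100 genes changed by 1 on the log2 scale and 86% of 100 changed by 2. A gene that was not called is therefore not shown to be unchanged. Ratios used SciPy 1.17.1, and log2 CPM for likeness a prior count of 2. Shared windows of 50 and 100 bases were sought in GENCODE transcripts, both strands, since no genome was used here. Intervals and floors hold counting error alone, since PCR copies cannot be told from separate molecules here.

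Members and lists were chosen with earlier results of these data known. Named were the members, the 3 most counted variable or joining segments of each locus, Ighm and Ighd, for each list the 4 largest called changes at a mean CPM of 1 or more or, in a list with none, the 2 most counted genes, and the 5 nearest genes by distance. Other genes named, among them Igll1, Vpreb1, Vpreb2, Spi1, Brwd1, Mef2c, Rag1, Rag2, Pax5, Prdm1, Derl3, Xbp1, Igkv1-135, Igkv3-2, Igkv17-127, Cxcr5, Ccr7, Cd40, Cr2, Fcer2a and Cd3e, were chosen after their values were seen. Some genes that this rule names are not reported here.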

Additional observations from a re-analysis of the deposited data

How the results depend on the processing

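No alternative with a test ended the call or turned the direction of a constant gene. Igkc stayed between -6.65 and -6.55 on the log2 scale over 8 alternatives (highest adjusted p 0.0113, limma-voom). Iglc1, Iglc2 and Iglc3 stayed lower over 6 (highest adjusted p 0.0113, 0.0198 and 0.0122), and the stricter filter, a CPM of at least 1 in 2 libraries, left them out of the test. Fitted values of Iglc1 and Iglc2, at 0 in Pax5-/-, ran from -11.79 to -9.80 and from -9.64 to -7.66 and depend on the tool. Without 1 Pax5-/- library there is no residual degree of freedom, hence no test and no count of calls; values were then -7.11 to -6.20 for Igkc, -11.80 to -11.76 for Iglc1, -9.65 to -9.61 for Iglc2 and -8.10 to -7.22 for Iglc3. The count of called genes was 2130, ranged from 1851 to 2578 under the other scalings, filters and tools, and was 1206 with the between-library variation fixed at a coefficient of 0.4; the cause was not tested. With variable and joining segments added, the kappa to lambda ratio was 150 for Pax5-/- 1, 58.2 for Pax5-/- 2 and 3.28 for wild type. Most kappa counts in that sum were on Igkv segments in Pax5-/- and on Igkc in the wild type. The wild-type ratio was 9.11 with Iglc1 alone as lambda and 5.82 with Iglc2 and Iglc3, since fewer lambda genes were summed. Against Iglc1 alone the Pax5-/- ratios were at least 18.0 and 10.0, with 0 lambda counts taken as 3. No paired analysis was possible with 1 wild-type library. Depth limits the lambda side of the Pax5-/- ratios, which rest on 2 and 4 counts.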
